A study of Homo sapiens with 6 samples.

Results

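The 10 genes described here were the BCL2 family regulators of apoptosis BCL2, BCL2L1, MCL1, BAX, BAK1, BBC3, PMAIP1, BID, BIK and BCL2L11. They were chosen by gene symbol, and all 10 were found among the 29889 genes of the count table and among the 29687 genes of the FPKM table (sequenced fragments normalised to transcript length and library depth). RNA was sequenced from A549, an epithelial cell line from a human non-small cell lung cancer, 48 h after transfection with a lipid reagent. The CELF6-OE group (3 biological replicates) received the plasmid pIRES-hrGFP-1a carrying CELF6, an RNA-binding protein of the CELF family, and the Control group (3 biological replicates) received the same plasmid without it. Both groups therefore carried a plasmid and the transfection reagent, and the RNA of each library came from the whole transfected culture of this single line. The comparison asked whether over-expression of CELF6 changed the mRNA level of these genes.

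BCL2 family proteins control whether the outer mitochondrial membrane is opened during intrinsic apoptosis. BAX and BAK1 assemble into pores in that membrane, and BCL2, BCL2L1 (BCL-XL) and MCL1 hold them in check. The BH3-only proteins BBC3 (PUMA), PMAIP1 (NOXA), BID, BIK and BCL2L11 (BIM) carry stress signals to both sides, by binding the anti-apoptotic proteins or by activating the pore-forming ones. Once the membrane is open, cytochrome c leaves the mitochondria and caspases are activated. Lung cancer cells of epithelial origin often depend on BCL2L1 and MCL1 for survival.

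The libraries held 33748328 to 35413404 counts in CELF6-OE and 36422617 to 37920700 in Control. CELF6 was counted 18646, 20789 and 11571 times in the CELF6-OE libraries and 0 times in each Control library, where a count of 0 allows up to 3 counts. Epithelial markers had a summed FPKM of 5041 to 5793 in the CELF6-OE libraries and of 6177 to 7029 in the Control libraries, and 4 of the 6 (KRT8, KRT18, KRT19 and CDH1) were lower in CELF6-OE at an adjusted p under 0.05. The sums of the 5 leukocyte markers found were 3.67 to 5.03 and 3.60 to 4.31, mostly from CD14 (225 to 310 counts). PTPRC had at most 2 counts in any library, and ITGAM, with 54 to 109 counts, was lower in CELF6-OE (log2 fold change -0.73, adjusted p = 0.0119, edgeR). Fibroblast markers summed to at most 0.46 and endothelial markers to at most 0.07 FPKM. The part of the lower epithelial marker level in the results on the BCL2 family was not tested.

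The level of the 10 genes per unit of length spanned from BAX, at percentile 98.7 of all genes in both groups, to BCL2, at percentile 43.4 in CELF6-OE and 34.0 in Control. BAX had an FPKM of 166 ± 5.83 (SD, n = 3) in CELF6-OE and 170.4 ± 16.5 in Control, followed by BCL2L1 with 99.8 ± 1.82 and 114 ± 7.24. MCL1 came next with 42.7 ± 2.64 and 48.2 ± 4.07. Among the BH3-only genes of these 10, BID was the most abundant, with 21.1 ± 0.49 in CELF6-OE and 22.1 ± 0.73 in Control. BAK1, the less abundant of the pore-forming genes, had 15.6 ± 1.24 and 20.2 ± 1.04. BBC3 and PMAIP1 were next, and BCL2L11 followed with 1.72 ± 0.18 and 2.19 ± 0.22. BIK had 0.85 ± 0.14 and 0.96 ± 0.05, and BCL2 was lowest with 0.13 ± 0.02 and 0.05 ± 0.02. The order of the genes was the same in both groups except for BBC3 and PMAIP1. Those neighbours exchanged places, with 5.65 ± 0.61 for BBC3 and 6.37 ± 0.34 for PMAIP1 in CELF6-OE against 9.18 ± 0.44 and 9.14 ± 1.88 in Control, and their ranges over libraries overlapped in both groups. No other neighbours in the order had overlapping ranges within a group.

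**Figure D1:**
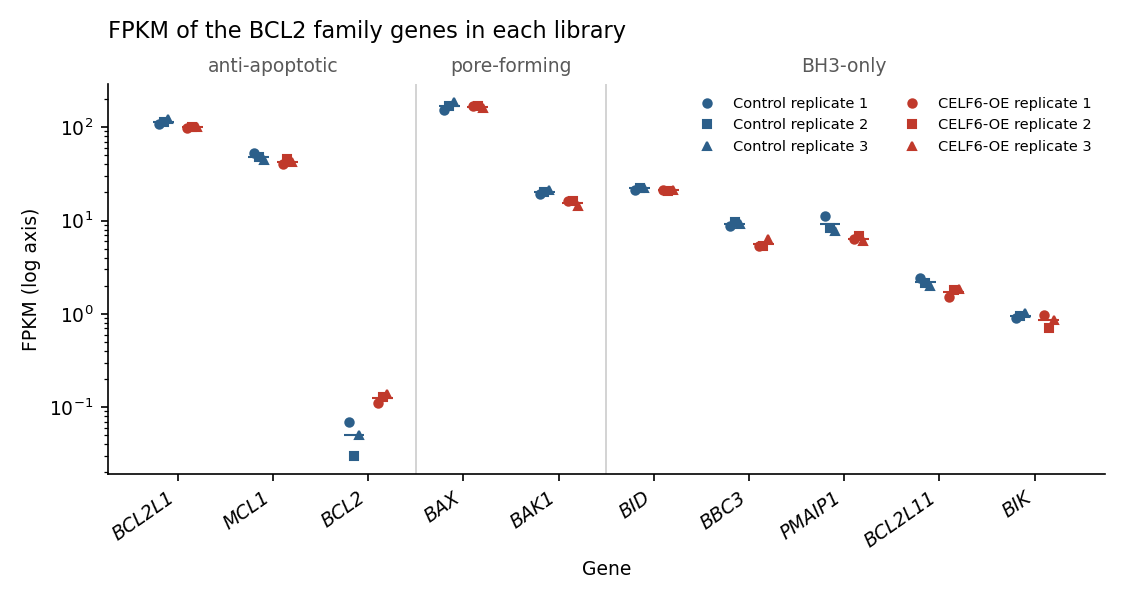
FPKM of the 10 BCL2 family genes on a log axis, by role, in each of the 3 Control (blue) and 3 CELF6-OE (red) libraries, with marker shapes for replicates and a short line at each group mean. BAX and BCL2L1 lie near or above 100, and BCL2 lies at 0.03 to 0.14. The groups do not overlap for BBC3, PMAIP1, BCL2L11, BAK1 and BCL2L1, which are lower in CELF6-OE, or for BCL2, which is higher.

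Of the 10 genes, 4 were lower and 1 was higher in CELF6-OE at an adjusted p under 0.05 (edgeR's quasi-likelihood test, adjusted by Benjamini-Hochberg over the 15847 genes tested). BBC3, PMAIP1, BAK1 and BCL2L11 fell, and BCL2 rose. Of all genes tested, 11.5% were called lower and 6.47% higher by the same rule. With the rule of the study's methods, a p under 0.01 and a change of at least 1.5-fold, BBC3 was the 1 gene called lower and BCL2 the 1 called higher, against 5.91% and 1.36% of all genes. The median log2 fold change of the 10 genes was -0.22, beside 0.01 over all genes tested. In scaled CPM (counts relative to the library total, with totals scaled by TMM, the trimmed mean of M values), each CELF6-OE value was below each Control value for 6 of the 10 genes, and above for 1. Over all genes tested these shares were 20.0% and 17.9%. PMAIP1 also met the rule of the methods, for a count of 2 lower genes, without CELF6-OE replicate 2 (log2 fold change -0.59), Control replicate 2 (-0.60) or Control replicate 3 (-0.63). In RNA from whole cultures, fewer cells that express a gene and less of its RNA per cell cannot be told apart.

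**Figure D2:**
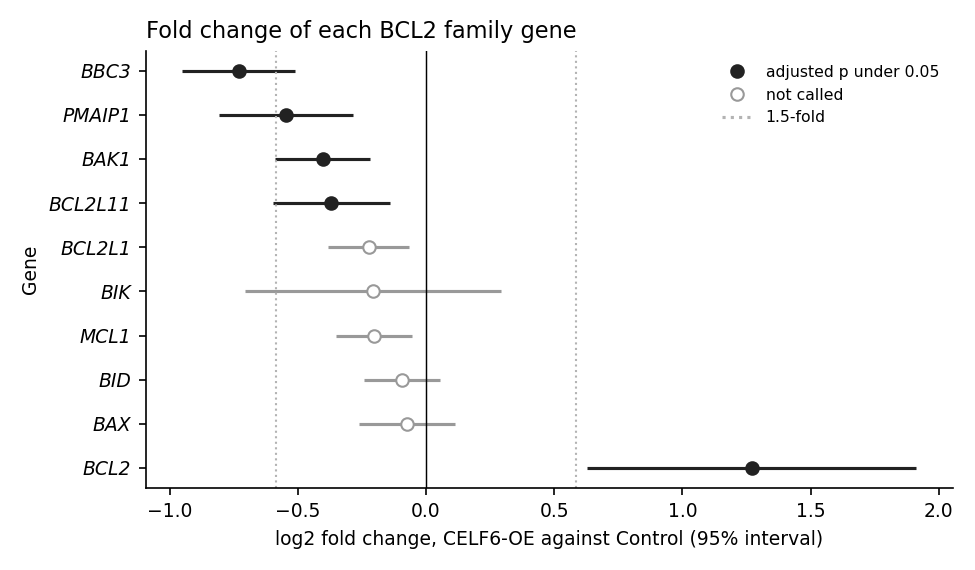
Log2 fold change of each BCL2 family gene, CELF6-OE against Control (3 libraries each), with its 95% confidence interval, where filled points have an adjusted p under 0.05 and dotted lines mark a 1.5-fold change. BBC3 is furthest to the left at -0.73, BCL2 is alone on the right at 1.27, and the intervals of BAX, BID and BIK include 0.

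Of the 5 BH3-only genes, BBC3, PMAIP1 and BCL2L11 fell, and BID and BIK were not called. BBC3 (ENSG00000105327, chr19:47220822-47232766, minus strand, GRCh38) encodes PUMA, a protein that binds every anti-apoptotic member of the family. Its level in scaled CPM was 11.5, 11.4 and 13.8 in the CELF6-OE libraries and 18.8, 21.4 and 20.6 in the Control libraries. Each CELF6-OE library thus lay well under each Control library, with a gap between the groups wider than the range inside either. BBC3 fell by 39.7%, to 0.603 of its Control level (95% confidence interval 0.518 to 0.702), with a log2 fold change of -0.73 (SE 0.10, adjusted p = 0.000589, edgeR's quasi-likelihood test). Under 16 other analysis settings the adjusted p was 2.90e-10 (without the filter on low counts) to 0.00679. Behind these values stood 401 to 470 counts in CELF6-OE and 697 to 796 in Control.

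PMAIP1 (ENSG00000141682, chr18:59899996-59904305, plus strand) encodes NOXA, which binds MCL1 and promotes its degradation. Its scaled CPM values were 13.8, 14.5 and 13.2 in CELF6-OE and 24.2, 18.6 and 17.7 in Control. The CELF6-OE libraries were close together and the Control libraries were spread, with replicate 1 the highest, so that the coefficient of variation was 4.71% in CELF6-OE and 17.6% in Control. PMAIP1 fell by 31.5% (log2 fold change -0.54, SE 0.12, adjusted p = 0.00968, edgeR's quasi-likelihood test). Without Control replicate 1 the log2 fold change was -0.40. The adjusted p stayed under 0.05 in all 16 other settings, with a largest value of 0.0453 without CELF6-OE replicate 1.

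BCL2L11 (ENSG00000153094, chr2:111119378-111168444, plus strand) encodes BIM, which is under the control of FOXO transcription factors and ERK signalling and binds both the anti-apoptotic proteins and BAX. Its scaled CPM values were 9.68, 11.2 and 11.6 in CELF6-OE and 15.1, 13.96 and 13.03 in Control. The groups did not overlap, though the nearest libraries, CELF6-OE replicate 3 and Control replicate 3, were close. BCL2L11 fell by 22.6% (log2 fold change -0.37, SE 0.10, adjusted p = 0.0311, edgeR's quasi-likelihood test). This call was lost without CELF6-OE replicate 1 (-0.29, adjusted p = 0.140), without CELF6-OE replicate 2 (-0.40, adjusted p = 0.0791) and without Control replicate 2 (-0.37, adjusted p = 0.113), and the adjusted p was under 0.05 in 9 of the 16 other settings. The long non-coding RNA gene MIR4435-2HG overlaps BCL2L11 on the opposite strand, with 1730 to 1887 counts in CELF6-OE and 1520 to 1741 in Control, and the strand setting of the counting was not given in the sources used here.

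BID (ENSG00000015475, chr22:17734138-17774770, minus strand) links death receptors to the mitochondria once caspase-8 has cleaved its protein. In scaled CPM it stood at 62.4, 59.0 and 62.3 in CELF6-OE and 61.0, 67.1 and 68.2 in Control. The ranges overlapped through Control replicate 1, and the log2 fold change of -0.10 had a 95% interval of -0.24 to 0.05 (adjusted p = 0.355, edgeR's quasi-likelihood test). BIK (ENSG00000100290, chr22:43110750-43129712, plus strand), a BH3-only protein of the endoplasmic reticulum, had only 25 to 34 counts in CELF6-OE and 33 to 38 in Control. Its log2 fold change of -0.21 had an interval of -0.71 to 0.29 (adjusted p = 0.563, edgeR), an interval that includes both no change and the change measured for PMAIP1.

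Of the pore-forming genes, BAK1 fell and BAX was not called. BAK1 (ENSG00000030110, chr6:33572547-33580293, minus strand) encodes the protein that resides in the outer mitochondrial membrane even in healthy cells. Scaled CPM values of BAK1 were 37.3, 37.1 and 32.4 in CELF6-OE and 43.1, 47.6 and 50.6 in Control. All CELF6-OE libraries were below all Control libraries, with CELF6-OE replicate 3 the lowest. BAK1 fell by 24.4% (log2 fold change -0.40, SE 0.084, adjusted p = 0.00774, edgeR's quasi-likelihood test), and the adjusted p was 5.02e-05 (without the filter on low counts) to 0.0450 over the 16 other settings.

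BAX (ENSG00000087088, chr19:48954815-48961798, plus strand) encodes the effector that moves from the cytosol to the mitochondria. In the 3 CELF6-OE libraries the scaled CPM values were 249.5, 243 and 232, and in the Control libraries 223, 254 and 286. The 3 CELF6-OE libraries lay inside the range of the Control libraries, and the log2 fold change of -0.07 had a 95% interval of -0.26 to 0.11 (adjusted p = 0.578, edgeR's quasi-likelihood test). Without Control replicate 3 it was 0.018. With 7920 to 10430 counts per library, the spread between libraries (a coefficient of variation of 12.4% in Control) and not the depth set the width of that interval.

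The members called lower are shown by short stretches upstream of their RefSeq start sites because these are the genes whose lower level the results turn on. Windows of 250 bases before the start were read from RefSeq (GRCh38.p14) for 8 of the 10 genes, and MCL1 and BIK were not among them. Both strands were searched for the GC box GGGCGG, the E-box CACGTG, the TATA box TATAAA, the cAMP response element TGACGTCA, the FOXO site TGTTTAC, the E2F site TTTNGCGC, and, by name, the interferon response element core and the NF-kB site. Each stretch of 30 bases runs 5′ to 3′ on the strand of the gene, with the motif in capitals. The RefSeq start used for BCL2L11 lies downstream of the gene start in GENCODE v44 given above, so both of its stretches are inside that gene.
BBC3, E-box, chr19:47232882-47232911, minus strand: atggggagatttCACGTGagatatagatta
PMAIP1, 3 GC boxes, chr18:59899890-59899919, plus strand: GGGCGGggacagGGGCGGggacagGGGCGG
BAK1, GC box, chr6:33580330-33580359, minus strand: aaagtGGGCGGgacatgctcctgggcctgg
BCL2L11, FOXO site, chr2:111120679-111120708, plus strand: agagttactccgGTAAACAcgccagggacg
BCL2L11, 2 GC boxes, chr2:111120819-111120848, plus strand: gccgGGGCGGgacctagcggGGGCGGggtc

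None of the motifs searched was present in all 4 windows. The GC box and the E-box were also found in members that were not called, and the FOXO site only in BCL2L11. BCL2L1, not called, had no GC box, E-box or FOXO site, but 2 TATA boxes and 1 E2F site in 1 of its windows. The window of BAX had 4 E-boxes and 1 GC box, and among the 5 windows of BID, for different RefSeq starts, 4 had 1 to 4 GC boxes and 2 had an E-box. BCL2, which rose, had no match in its window. The GC boxes of PMAIP1 were repeated with the same 6 bases between them, and a further GC box on the other strand gave 4 in its window, beside 3 for BCL2L11, 2 for BAK1 and 0 for BBC3. A GC box was present in 42.6% of the 35116 windows of all genes. The E-box of BBC3, a palindrome and so a match on both strands, was present in 6.34% of all windows. The FOXO site of BCL2L11 lies on the minus strand, and 2.98% of windows held that motif. The windows differed in composition, with a GC content of 49.2% for BBC3, 58.0% for BAK1, 72.8% for PMAIP1 and 76.8% for BCL2L11, around a median of 58.0% over all windows. No match was found in these 4 windows for the TATA box (present in 10.7% of all windows), the cAMP response element (1.65%), the E2F site (1.51%), the interferon response element core (3.02%) or the NF-kB site (5.21%), which says only that those letters are not in these 250 bases.

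Of the anti-apoptotic genes, BCL2 rose from a very low level, and BCL2L1 and MCL1 did not pass the adjusted threshold. BCL2 (ENSG00000171791, chr18:63123346-63320128, minus strand), the founding member of the family, was counted 30, 38 and 38 times in CELF6-OE and 21, 10 and 15 times in Control. In scaled CPM these were 0.86, 1.05 and 1.11 against 0.57, 0.27 and 0.41. All CELF6-OE libraries were above all Control libraries, although every value was near or under 1 CPM. BCL2 was 2.41-fold higher (95% confidence interval 1.55 to 3.77), a log2 fold change of 1.27 (SE 0.29, adjusted p = 0.0127, edgeR's quasi-likelihood test). The call was lost without CELF6-OE replicate 2 (1.23, adjusted p = 0.0538) and without Control replicate 2 (1.04, adjusted p = 0.0641). Counting alone gives a coefficient of variation of 25.5% in Control at this depth, and 35.8% was observed. Long non-coding RNA genes overlap BCL2, 1 on the same strand and 1 on the opposite strand, and neither was found among the counted genes. Whether their reads were counted for BCL2 was not tested.

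BCL2L1 (ENSG00000171552, chr20:31664452-31723989, minus strand) encodes BCL-XL and was by far the most abundant anti-apoptotic gene, counted per gene without separating splice forms. Its scaled CPM values were 291, 295 and 298 in CELF6-OE and 314, 342 and 376 in Control. The groups did not overlap, and the CELF6-OE libraries agreed within a coefficient of variation of 1.16%, while that of Control was 9.08%. The log2 fold change was -0.22 (95% interval -0.38 to -0.07, adjusted p = 0.0524, edgeR's quasi-likelihood test), just above the threshold. It passed in 7 of the 16 other settings, among them without Control replicate 1 (-0.29, adjusted p = 0.00411).

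MCL1 (ENSG00000143384, chr1:150560895-150579738, minus strand) encodes a short-lived protein that is lost quickly when its synthesis stops. Its scaled CPM values were 172, 190.3 and 179 in CELF6-OE and 219, 209 and 195 in Control. The CELF6-OE libraries lay under the Control libraries with a narrow gap on this scale, while in FPKM the groups overlapped (45.5 in CELF6-OE replicate 2 against 44.2 in Control replicate 3). The log2 fold change was -0.20 (95% interval -0.35 to -0.06, adjusted p = 0.0577, edgeR's quasi-likelihood test), and it passed in 2 of the 16 other settings, among them without Control replicate 3 (-0.25, adjusted p = 0.0179). ADAMTSL4, which overlaps MCL1 on the opposite strand, had 109 to 125 counts in CELF6-OE and 205 to 283 in Control, beside 5974 to 8096 counts of MCL1.

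**Figure D3:**
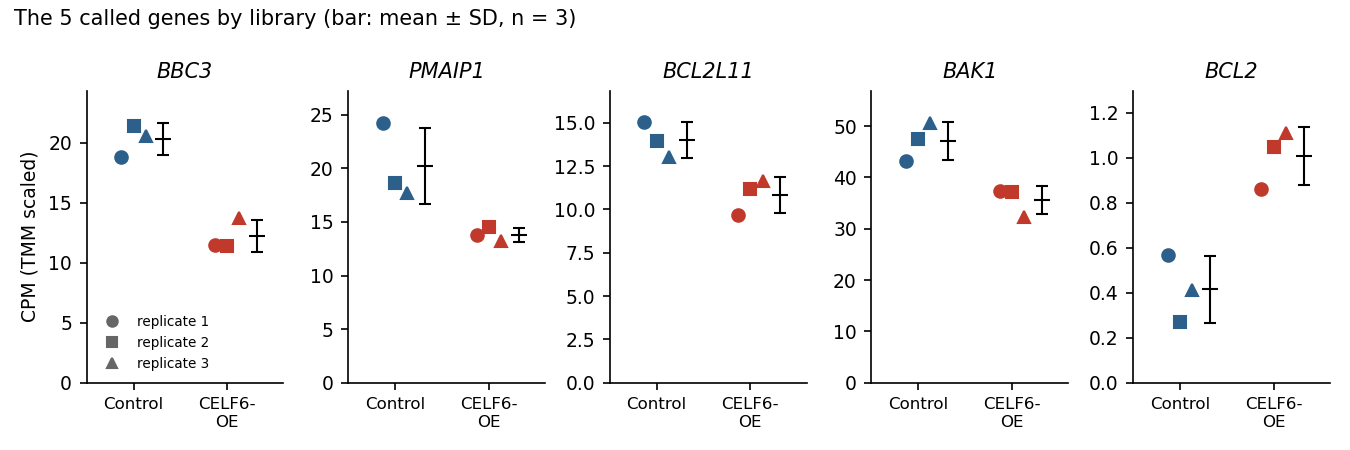
Scaled CPM of BBC3, PMAIP1, BCL2L11, BAK1 and BCL2 in each library, each panel with its own axis from 0, with the mean ± SD (n = 3) beside the points. These 5 genes were picked because they were called in these same libraries, so groups that do not overlap follow largely from that choice. Over all genes tested, 20.0% had all CELF6-OE libraries below all Control libraries and 17.9% had them above. Control replicate 1 stands high for PMAIP1, and BCL2 stays near or under 1 CPM.

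Among the 10 genes, the summed mRNA of the BH3-only and of the anti-apoptotic role was lower in every CELF6-OE library. That of the pore-forming role overlapped between the groups. Other BH3-only genes were left out, among them BAD with 43.1 ± 2.11 FPKM in CELF6-OE and 35.9 ± 2.58 in Control. The BH3-only sum therefore does not stand for all BH3-only mRNA. These sums and ratios are descriptions of FPKM levels without a test, and the most abundant gene weighs most in each. The 5 BH3-only genes summed to 35.4, 35.1 and 36.6 FPKM in CELF6-OE and 44.6, 43.7 and 42.3 in Control, and the ratio of the group means was 0.820. BBC3, PMAIP1 and BCL2L11 together made up 38.5% ± 1.31 (SD, n = 3) of that sum in CELF6-OE and 47.0% ± 3.01 in Control. The share of BID was correspondingly higher, with 59.1% ± 0.96 against 50.7% ± 2.84. The mRNA of these 5 genes was thus composed more of BID, whose protein needs cleavage, in CELF6-OE.

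The 3 anti-apoptotic genes summed to 138, 146 and 143 FPKM in CELF6-OE and 159.8, 161 and 166 in Control, and the ratio of the means was 0.879. BCL2L1 made up 70.0% ± 1.02 of that sum in CELF6-OE and 70.2% ± 3.07 in Control, so the balance between BCL2L1 and MCL1 differed by less than the spread between replicates. BCL2 was 0.089% of the sum in CELF6-OE and 0.031% in Control, and its rise therefore hardly moved the total. The pore-forming genes summed to 186, 185 and 173 FPKM against 173, 189.9 and 208, in which BAK1 took 8.60% ± 0.36 in CELF6-OE and 10.6% ± 0.43 in Control.

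The ratio of BAX to BCL2L1, set by FPKM, was 1.74, 1.67 and 1.58 in the CELF6-OE libraries and 1.44, 1.5 and 1.54 in the Control libraries. It was higher in each CELF6-OE library than in each Control library, with a narrow gap between CELF6-OE replicate 3 and Control replicate 3. The ratio of BAX to BCL2 went the other way and was lower in each CELF6-OE library. It was 1323 ± 205 in CELF6-OE and 3868 ± 1727 in Control, and rests on the very low FPKM of BCL2, rounded to 2 decimals. The ratio of BAX to MCL1 was 3.89 ± 0.28 and 3.57 ± 0.64, and these ranges overlapped. The ratio of the BH3-only sum to the anti-apoptotic sum also overlapped, with 0.251 ± 0.0093 in CELF6-OE and 0.269 ± 0.012 in Control.

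Around the 10 genes, 44 other genes of intrinsic apoptosis were looked up in 4 lists, and 41 were abundant enough to test (BCL2L10, BCL2L14 and TP73 were not). At an adjusted p under 0.05, 6 were lower and 1 was higher in CELF6-OE, and 4 were lower and 0 higher by the rule of the methods. Of all genes tested, 11.5% were lower and 6.47% higher by the first rule, and 5.91% and 1.36% by the other. Their median log2 fold change was 0.04, beside 0.01 over all genes tested.

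Of 9 tested genes among the other BCL2 family members, 1 fell, beside 11.5% of all genes tested. The median log2 fold change of the list was -0.07. BCL2L13, a family member of the outer mitochondrial membrane that acts as a receptor for mitophagy, was counted 1796, 1859 and 2005 times in CELF6-OE and 2893, 3147 and 2994 times in Control. The groups were far apart, with a log2 fold change of -0.60 (SE 0.072, adjusted p = 0.000240, edgeR's quasi-likelihood test). BAD, the most abundant gene of the list and a BH3-only protein silenced by survival kinases, had an FPKM of 43.1 ± 2.11 in CELF6-OE and 35.9 ± 2.58 in Control (log2 fold change 0.24, adjusted p = 0.0676, edgeR).

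Of 14 genes for mitochondrial release and caspases, 2 fell, beside 11.5% of all genes tested. CASP9, the initiator caspase of the apoptosome, was counted 411, 509 and 440 times in CELF6-OE and 676, 753 and 739 times in Control (log2 fold change -0.60, SE 0.094, adjusted p = 0.00144, edgeR). The median of this list was 0.11, and VDAC1, the channel of the outer membrane and the gene with the largest mean FPKM over the 6 libraries, had an FPKM of 213 ± 3.16 in CELF6-OE and 198 ± 3.48 in Control (log2 fold change 0.07, adjusted p = 0.410, edgeR). Within Control alone VDAC2 was higher, at 204 ± 6.21.

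Of 11 tested transcription factors that act on BCL2 family promoters, 3 fell, beside 11.5% of all genes tested. IRF1, an interferon-induced factor, was counted 1798, 1771 and 2097 times in CELF6-OE and 4053, 4233 and 4383 times in Control, and its log2 fold change was -1.09 (SE 0.086, adjusted p = 2.01e-05, edgeR). ATF3, a factor of the integrated stress response, had a log2 fold change of -0.60 (SE 0.097, adjusted p = 0.00163, edgeR), with 303 to 376 counts in CELF6-OE and 522 to 543 in Control. ATF4, the most abundant of the list, had a log2 fold change of 0.08 (adjusted p = 0.480, edgeR), with an FPKM of 193 ± 3.43 in CELF6-OE and 179 ± 10.5 in Control.

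Of 7 enzymes that turn over BCL2 family proteins, 1, GSK3B, was called higher, beside 6.47% of all genes tested. It encodes a kinase that marks MCL1 for degradation, and it was counted 1387, 1446 and 1277 times in CELF6-OE and 1332, 1184 and 1109 times in Control. The log2 fold change was 0.25 (SE 0.079, adjusted p = 0.0472, edgeR), a call kept in 7 of the 16 other settings and lost without any of the CELF6-OE replicates (adjusted p = 0.158, 0.166 and 0.0756), Control replicate 2 (0.192) or Control replicate 3 (0.0707). MARCHF5, a ubiquitin ligase of the mitochondria and the most abundant gene of the list, had an FPKM of 8.55 ± 0.42 in CELF6-OE and 8.35 ± 1.13 in Control (log2 fold change 0.01, adjusted p = 0.962, edgeR).

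**Figure D4:**
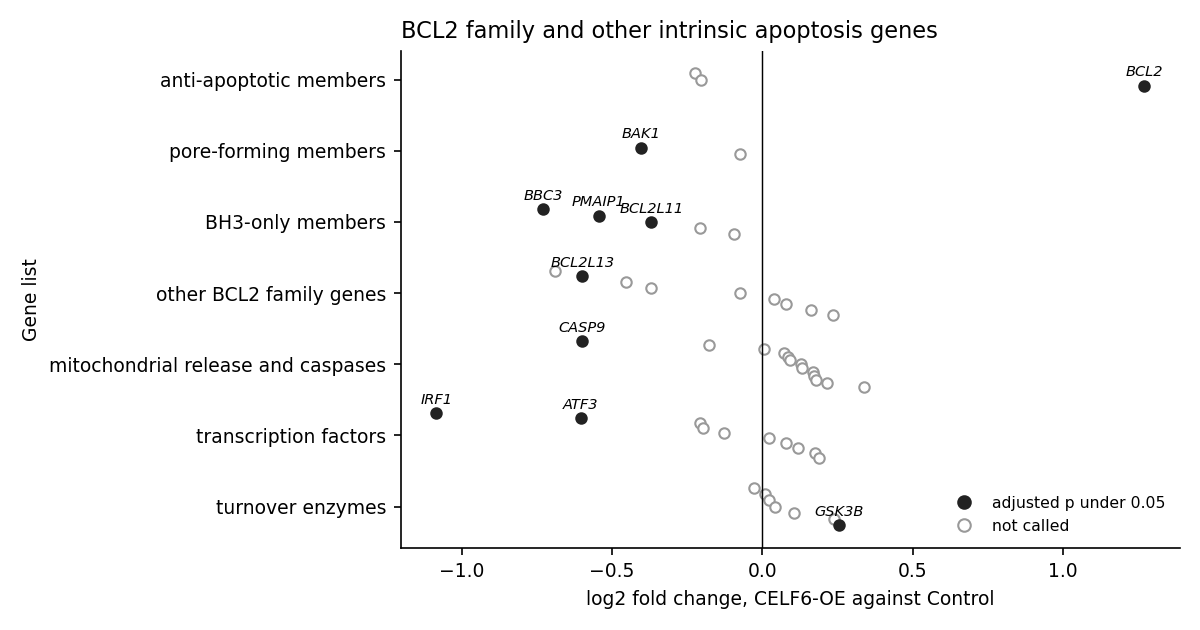
Log2 fold change, CELF6-OE against Control, of the 10 BCL2 family genes by role and of 39 of the 41 tested genes in 4 other lists, 1 point per gene, with filled and named points at an adjusted p under 0.05. IRF1 lies furthest to the left at -1.09, and most open points lie within 0.25 of 0. The 5 BH3-only genes of the 10 all lie left of 0, with BID and BIK open, as did 7665 of the 15847 genes tested. BAD, a BH3-only gene of another list, lies right of 0 at 0.24 and is open.

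Some genes followed the pattern of the members closely over the 6 libraries. BBC3, the member with the smallest p, was close to ACP2 (Pearson r = 0.9994, log2 CPM) and BCL2L13 (0.9989). An r over 0.95 with BBC3 was reached by 882 genes. A gene that is lower in CELF6-OE with little spread inside each group has a high r with BBC3 for that reason alone. For BCL2 the most alike were SH3BP5 (0.993), ARID1A (0.990) and PAQR3 (0.988), and 79 genes passed 0.95. The 6 libraries fall into 2 treatment groups, so these values describe likeness only.

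**Figure D5:**
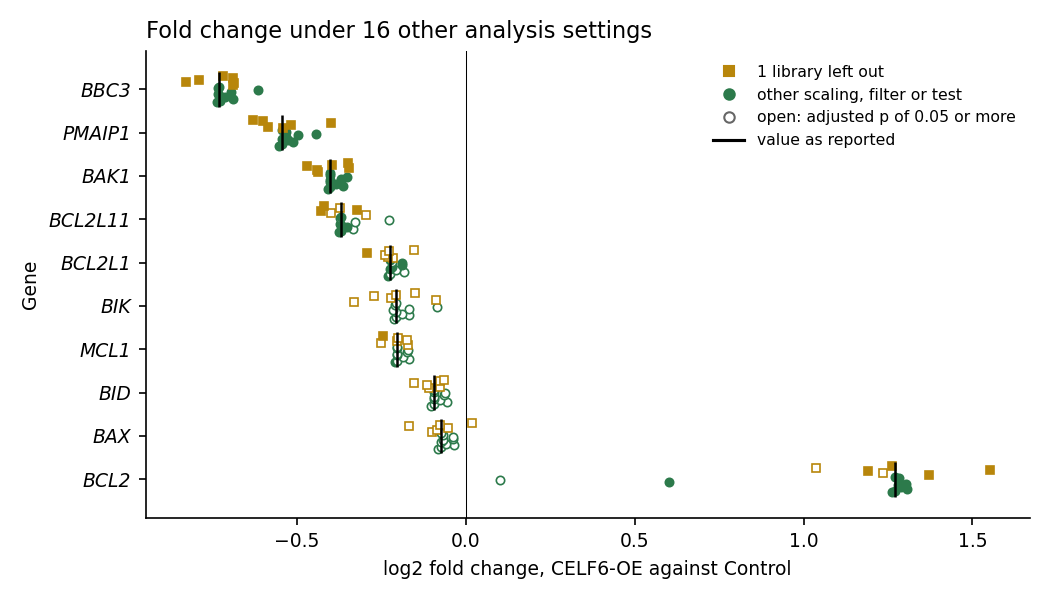
Log2 fold change of each BCL2 family gene under 16 other analysis settings, with squares for fits without 1 library, circles for another scaling, filter or test (those on FPKM on the scale of log2(FPKM + 0.1) or log2(FPKM + 1)), open symbols for an adjusted p of 0.05 or more, and a vertical line at the reported value. BBC3, PMAIP1 and BAK1 are filled throughout, BCL2L11 and BCL2 are in part open, and BAX crosses 0 without Control replicate 3, at 0.018.

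BBC3, PMAIP1 and BAK1 were called lower in all 16 other settings. BCL2 was called higher in 13 of them. Its log2 fold change was 1.04 to 1.55 over the fits with 1 library left out, and 0.10 on the scale of log2(FPKM + 1), where the pseudocount exceeds its FPKM several times over. BAX, BID and BIK were called in 0 of the 16 settings.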

How the data were processed

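Polyadenylated RNA of 6 libraries was sequenced in pairs from a directional kit. Read trimming by the authors used FASTX-Toolkit, TopHat2 gave the alignment to GRCh38, and uniquely placed reads were counted. The deposited counts are whole numbers without normalization, and the deposited FPKM values were computed by the authors and rounded to 2 decimals. The tool and strand setting of the counting, and the gene annotation, are not given in the sources used here. Groups and replicates were taken from the sample labels, and 0 columns were left out. The deposited tables name each gene by Ensembl identifier and symbol, and do not separate its splice forms. Positions of genes are from GENCODE v44.

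Counts were scaled with TMM, and the 15847 of 29889 genes kept by filterByExpr (minimum count 10) were fitted with edgeR 4.0.16 (R 4.3.3) by its quasi-likelihood test with Benjamini-Hochberg adjustment. This filter replaced the test of every counted gene, because without it the prior degrees of freedom were infinite (7.15 with it). When they are infinite, a gene's own spread between replicates does not enter its p. A prior count of 0.125 entered the log2 fold changes, and the biological coefficient of variation was 8.62%. The fit was run on simulated counts with known changes of 1.5-fold or more. Smaller changes, such as those of most of the 10 genes, were not simulated, and the outcome is not reported here. FPKM, being per length, served for levels between genes. The 16 alternatives were no filter, RLE size factors, library size only, upper quartile scaling, DESeq2 1.42.0, voom, log2(FPKM + 0.1) and log2(FPKM + 1) in limma 3.58.1, robust empirical Bayes, a replicate block, and each library left out. Libraries within a group differed by more than counting noise, and most between Control replicates 1 and 3. The chi-square per degree of freedom of that pair was 31.4, beside 8.02 to 12.5 for the other pairs within a group. With 3 libraries a group, and 10 to 38 counts of BCL2 and BIK, small changes of those genes cannot be seen, and intervals cover the spread between these libraries only. The 10 genes, the other lists, the motifs and the rule for named genes (every called gene and the most abundant of each list, and the 3 most alike in pattern) were chosen with earlier results of these data known. A few genes picked by that rule are not reported here.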

Additional observations from a re-analysis of the deposited data

How the results depend on the processing

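Of 160 recomputed log2 fold changes of the 10 genes, 140 kept their direction and their side of the adjusted threshold, 10 lost a call, 9 gained 1 and 1 changed sign (BAX, -0.17 to 0.018 with a library left out, positive without Control replicate 3 at an adjusted p of 0.882, edgeR). The cause was not tested for any of these. The 1 member called higher, BCL2, became 0 by either rule with limma on log2(FPKM + 1), and 0 to 1 by adjusted p with a library left out (0 without CELF6-OE replicate 2 or Control replicate 2). The 4 called lower by adjusted p became 3 to 6, with 6 when low counts were not filtered, which adds BCL2L1 and MCL1. By the rule of the methods, 1 to 2 were lower with a library left out.

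Of the other apoptosis genes, the 1 called higher became 3 without the filter, 2 with library size only, upper quartile scaling and DESeq2, 3 with limma on log2(FPKM + 0.1), 3 on log2(FPKM + 1), and 0 to 4 with a library left out (0 without any CELF6-OE replicate or Control replicate 2, 4 without Control replicate 1). The 6 called lower became 4 to 8. The 4 lower by the rule of the methods became 1 with library size only, 2 with upper quartile scaling, 2 with limma on log2(FPKM + 0.1), 1 on log2(FPKM + 1), and 2 to 5 with a library left out.

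The groups share replicate numbers, but libraries of the same number did not deviate together (correlations of -0.011, -0.021 and -0.072), so the numbers were not taken as pairs. With the replicate block, 3 members were lower and 1 higher, and BCL2L11 was not called (log2 fold change -0.37, adjusted p = 0.0587, edgeR). Other scalings moved the median of all genes to at most 0.05 on the log2 scale. Depth limits BCL2 and BIK, whose counts were 10 to 38 a library.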
